A study of Homo sapiens with 6 samples.

Results

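The cadherin-catenin complex joins neighbouring cells and was followed here in H358 cells that carried TwistER or green fluorescent protein (GFP). The set comprised 10 genes chosen by name. They are the type I classical cadherins CDH1, CDH2, CDH3 and CDH4, the type II classical cadherins CDH6 and CDH11, the membrane-anchored cadherin CDH13, and the catenins CTNNA1, CTNNB1 and CTNND1. CDH13 is held in the membrane by a lipid anchor, lacks the tail that binds catenins, and is therefore not a classical cadherin, although it was listed with them. Of the 10 genes, 7 (5 cadherins and 2 catenins) had a probe set annotated with exactly 1 gene symbol, out of 18417 genes so measured, and each of the 7 had 1 such probe set. CDH4 and CDH13 had none by that rule, and the probe set of CTNND1 also carries the symbol of a read-through transcript, so these 3 genes were not analysed here.

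H358 is an established human non-small cell lung cancer line. The TwistER arrays (3) came from H358 cells with a stably expressed TwistER construct, and the GFP arrays (3) from H358 cells with stably expressed GFP. Constructs of this kind fuse the helix-loop-helix factor Twist to a hormone-binding part of the estrogen receptor, which makes the factor respond to 4-hydroxytamoxifen. Both lines received 100 nM 4-hydroxytamoxifen for 12 days, in medium with serum, and the titles place the GFP samples before and the TwistER samples after epithelial-mesenchymal transition. The labels do not say whether either line was a clone or a pool, and TwistER cells without the drug were not analysed here, so the action of the factor and other differences between the lines cannot be told apart.

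Classical cadherins span the membrane and bind the same kind of molecule on the next cell. Their tails hold p120-catenin (CTNND1) near the membrane and beta-catenin (CTNNB1) further in, and beta-catenin binds alpha-catenin (CTNNA1), which connects to actin. Beta-catenin outside the complex also serves as the transcriptional partner of TCF and LEF factors in Wnt signalling. Epithelia are typically held together by E-cadherin (CDH1), and its loss with a gain of N-cadherin (CDH2), often called the cadherin switch, is a textbook feature of epithelial-mesenchymal transition.

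Twist and other helix-loop-helix factors bind E-boxes, DNA words of the form CANNTG. The RefSeq promoter table (GRCh38.p14), which gives 250 bases before and 50 after a start, held 9 entries for 4 of the 10 genes (CTNNA1, CTNNB1, CDH2 and CDH4). CDH1, CDH3, CDH6, CDH11, CDH13 and CTNND1 were without an entry. Of the members that changed (below, CDH1, CDH6, CDH11 and CTNNA1), CTNNA1 alone could therefore be shown. Of its 4 starts, the outermost and one inside the gene are printed, beside the single start of CTNNB1, the other measured catenin, with each CANNTG in capitals and all else in lower case. The CANNTG pattern is its own reverse complement, so the search covers both strands.
CTNNA1, outermost start, chr5:138753175-138753474, plus strand: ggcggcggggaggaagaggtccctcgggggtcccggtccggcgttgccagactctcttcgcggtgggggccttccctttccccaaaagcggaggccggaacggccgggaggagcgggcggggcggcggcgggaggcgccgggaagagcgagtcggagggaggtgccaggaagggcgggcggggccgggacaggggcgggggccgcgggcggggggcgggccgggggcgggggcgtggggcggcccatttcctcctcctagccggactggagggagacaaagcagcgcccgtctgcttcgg
CTNNA1, internal start, chr5:138874980-138875279, plus strand: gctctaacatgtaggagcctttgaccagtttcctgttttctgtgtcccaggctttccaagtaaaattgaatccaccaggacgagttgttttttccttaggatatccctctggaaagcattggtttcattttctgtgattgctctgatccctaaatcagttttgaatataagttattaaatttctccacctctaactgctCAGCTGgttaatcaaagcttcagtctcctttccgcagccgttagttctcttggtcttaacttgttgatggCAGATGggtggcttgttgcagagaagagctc
CTNNB1, chr3:41199255-41199554, plus strand: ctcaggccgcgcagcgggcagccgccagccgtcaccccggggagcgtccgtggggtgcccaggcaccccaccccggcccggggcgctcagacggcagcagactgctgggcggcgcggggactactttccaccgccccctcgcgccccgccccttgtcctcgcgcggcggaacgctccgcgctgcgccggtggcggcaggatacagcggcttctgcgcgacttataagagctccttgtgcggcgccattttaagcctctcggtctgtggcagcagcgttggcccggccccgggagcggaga

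No CANNTG lay in the outermost CTNNA1 window or in that of CTNNB1. The internal CTNNA1 window held 2, CAGCTG beginning 51 bases before the start and CAGATG beginning 19 bases after it. The other internal window of CTNNA1 overlaps it and holds the same pair, and the other outer window held 0. Of the windows of CDH2, the upstream one held 0 and the other held 1, a CAGATG beginning 97 bases before its start. Among all 35116 promoters of 300 bases in the table, 68.7% held at least 1 CANNTG. The form CAGGTG, or its reverse complement CACCTG, was in 20.6% of them and in none of the windows of the 3 measured members with an entry. These matches describe letters in the windows, and binding was not measured.

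Transcript levels were read as RMA values, log2 expression per probe set, with array medians from 4.95 to 5.03. Differences are TwistER minus GFP on this log2 scale with limma's SE, and a gene is said to rise or fall where its Benjamini-Hochberg adjusted p over all 18417 genes was under 0.05. Over all genes 4.72% rose and 4.11% fell, 8.83% together. Of the 7 measured members, 2 rose (CDH6 and CDH11), 2 fell (CDH1 and CTNNA1) and 3 (CDH2, CDH3 and CTNNB1) did not pass. Groups did not overlap in 6 of the 7, against 28.4% of all genes. The median difference was -0.15 over the members and 0.01 over all genes tested.

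One GFP array, replicate 1, was less like its group, with r = 0.982 to each of the others over genes, against r = 0.996 between GFP replicates 2 and 3. It was the lowest GFP array for 6 of the 7 members, and for 41.8% of all genes. Member results that rest on it are given with and without it.

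The E-cadherin gene CDH1 showed by far the widest gap of the members. It read 4.93, 5.06 and 5.30 in the TwistER arrays, against 9.53, 10.35 and 10.38 in the GFP arrays. All TwistER arrays were thus over 4 units below the lowest GFP array, and close to the array median. CDH1 fell 31.9-fold (-4.99 ± 0.23, 95% interval -5.51 to -4.48, limma adjusted p = 7.74e-06), and its difference lay between -5.27 and -4.85 when each array was left out in turn. No detection calls came with the values, so the TwistER level cannot be placed against background, and at background the fold would be a lower bound. Only 1 of the 18417 genes had a more negative difference. GFP replicate 1 minus the mean of the other GFP arrays was -0.83 for CDH1, and the difference without it was the -5.27.

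P-cadherin (CDH3), the basal-layer type I cadherin whose gene adjoins CDH1 on chromosome 16, read 7.34, 7.34 and 7.29 in the TwistER arrays and 7.57, 8.68 and 8.59 in the GFP arrays. The TwistER arrays were almost identical and below every GFP array, but GFP replicate 1 lay nearer to them than to its own group. The difference of -0.96 ± 0.27 did not pass (limma adjusted p = 0.0624). Dropping GFP replicate 1 gave -1.32 (limma adjusted p = 0.000157). Down-weighting arrays by their fit gave -1.26 (0.000198). Dropping any other array left CDH3 short of the threshold, with adjusted p up to 0.188.

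N-cadherin (CDH2), which typically replaces E-cadherin in mesenchymal cells, was bright in both lines. It read 10.02, 10.09 and 9.87 in the TwistER arrays, against 9.39, 9.77 and 9.75 in the GFP arrays. The groups did not overlap, but they were separated by only 0.10 between their nearest arrays. The difference of 0.36 ± 0.14 (95% interval 0.05 to 0.67, not adjusted for the number of genes) did not pass, with a limma adjusted p of 0.166 and of 0.0923 to 0.419 over 16 alternative settings. The upper end of the interval bounds a rise at 1.59-fold. The difference was 0.24 without GFP replicate 1 and at most 0.43 without any other array.

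**Figure D1:**
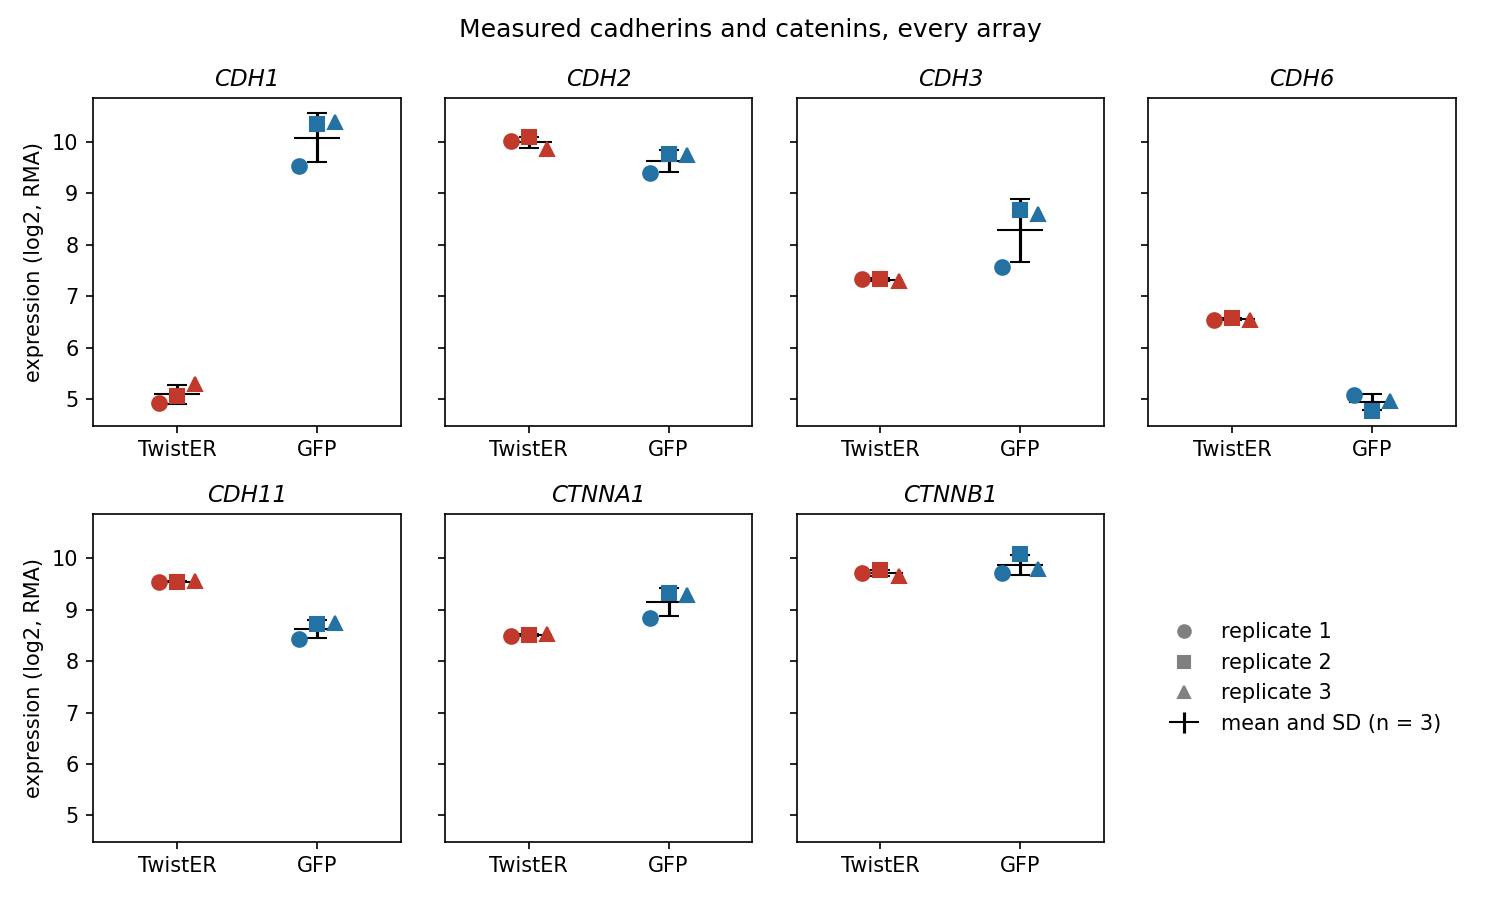
Log2 RMA expression of the 7 measured cadherins and catenins in every array, TwistER left and GFP right in each panel, with replicates 1 to 3 as circle, square and triangle and bars for the mean and SD (n = 3). CDH1 sits near 5 in TwistER and near 10 in GFP, CDH6 and CDH11 are higher in TwistER, and the GFP circle (replicate 1) is apart from the other GFP arrays for CDH1 and CDH3.

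Both measured type II cadherins rose. CDH6 (K-cadherin), known from the developing kidney, read 6.54, 6.58 and 6.54 in the TwistER arrays and 5.09, 4.77 and 4.96 in the GFP arrays. The TwistER arrays agreed within 0.04 and the GFP arrays lay near the array median. CDH6 was 3.06-fold higher (1.61 ± 0.12, limma adjusted p = 8.42e-05), the 88th largest rise among all genes.

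CDH11 (OB-cadherin), known from osteoblasts and other mesenchymal cells, read 9.54, 9.53 and 9.56 in the TwistER arrays, against 8.43, 8.72 and 8.75 in the GFP arrays. It was already bright in GFP cells, and every TwistER array was above every GFP array. CDH11 was 1.88-fold higher (0.91 ± 0.12, limma adjusted p = 0.00201). The differences of CDH6 and CDH11 kept their calls in all 16 alternative settings, at 1.53 to 1.69 and 0.81 to 0.98.

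Among the catenins, alpha-catenin (CTNNA1), the actin-side subunit, read 8.49, 8.51 and 8.52 in the TwistER arrays and 8.84, 9.33 and 9.28 in the GFP arrays. The groups did not overlap, and GFP replicate 1 was again the nearest GFP array to the TwistER group. CTNNA1 fell 1.56-fold (-0.64 ± 0.15, limma adjusted p = 0.0296). The fall of CTNNA1 did not pass once any TwistER array, or GFP replicate 2 or 3, was dropped (highest adjusted p 0.111), nor with cyclic loess normalization (0.0546). Dropping GFP replicate 1 gave a difference of -0.79 (adjusted p = 0.00125).

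Beta-catenin (CTNNB1) read 9.72, 9.78 and 9.65 in the TwistER arrays, against 9.72, 10.08 and 9.79 in the GFP arrays, and it was the member whose groups overlapped. Its difference of -0.15 ± 0.13 did not pass (limma adjusted p = 0.578), with a 95% interval of -0.44 to 0.14. The largest fall within that interval is 1.36-fold, so a change of CTNNB1 near the size of that of CDH1 lies far outside it. It was -0.04 without GFP replicate 2 and -0.22 without GFP replicate 1, and none of the alternatives passed. RNA values do not show where in the cell the protein lies.

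**Figure D2:**
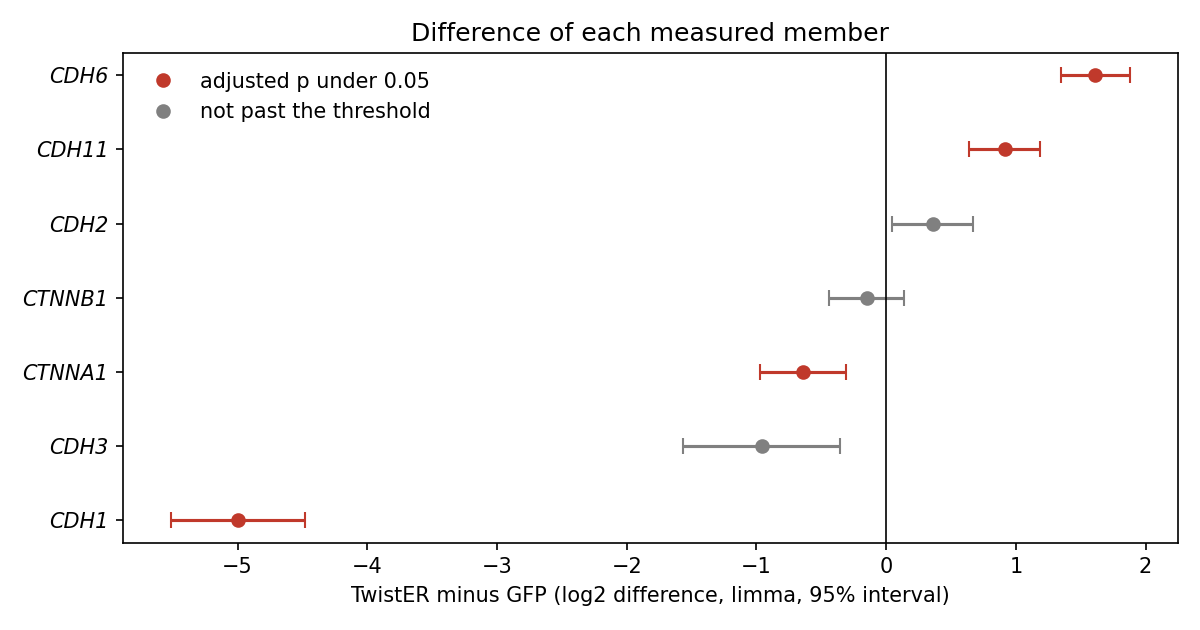
TwistER minus GFP difference of each measured member on the log2 scale, with limma's 95% intervals that are not adjusted for the number of genes. Red points passed an adjusted p of 0.05 and grey points did not; CDH1 lies at -4.99, the other members between -0.96 and 1.61.

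Members were also compared with each other within arrays, which cancels whatever scales a whole array. The difference between the responses of CDH1 and CDH3 was -4.04. Set against the GFP mean, CDH1 minus CDH3 was -4.22, -4.08 and -3.80 in the TwistER arrays, against 0.16, -0.14 and -0.02 in the GFP arrays. GFP replicate 1 was thus not apart from its group in this difference, and the value without it was -3.96. The response of CDH1 differed from that of CDH2 by -5.35 and from that of CTNNB1 by -4.84. In both of these pairs GFP replicate 1 was the lowest GFP array, at -0.31 and -0.41 against the GFP mean. Without it the values were -5.51 and -5.05. The response of CDH2 differed from that of CDH11 by -0.55, with an SD over arrays of 0.13 in TwistER and 0.05 in GFP (n = 3 each). All 4 pairs, chosen with earlier results known, separated the groups, and the exact 2-sided permutation test over 20 assignments gave p = 0.1 for each, the smallest that 3 against 3 arrays allow, also after adjustment over the 4 pairs.

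**Figure D3:**
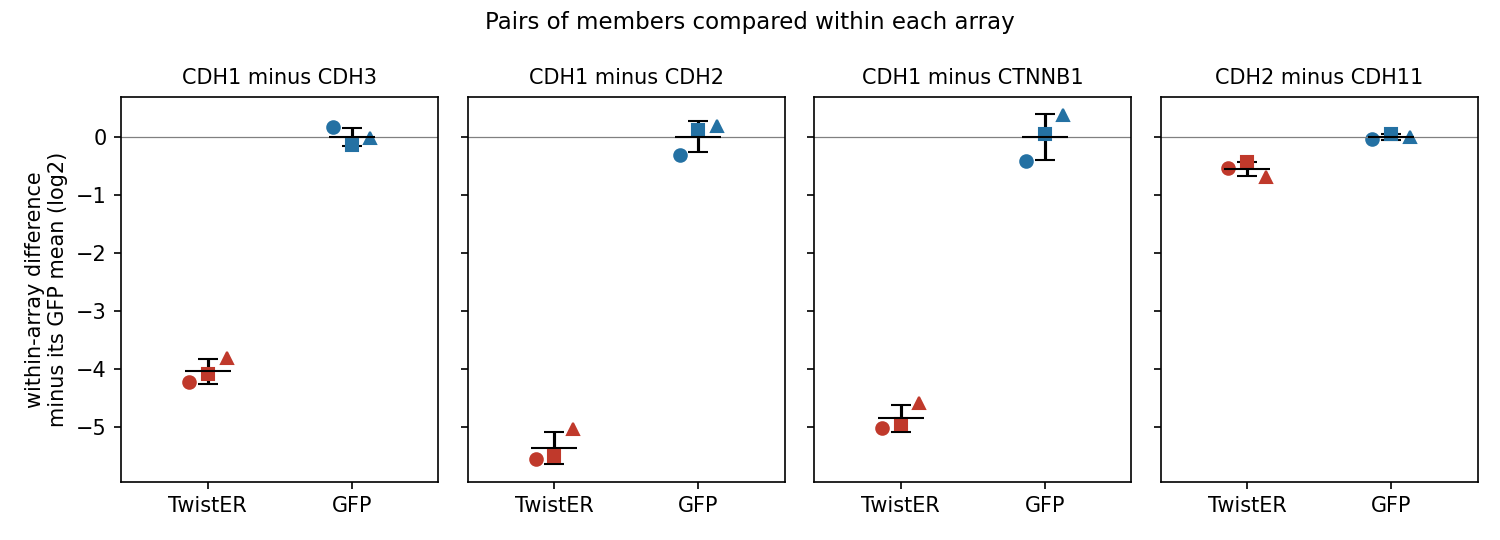
Within-array difference between members of 4 pairs on the log2 scale, set to a mean of 0 over the GFP arrays, with TwistER left and GFP right, replicates 1 to 3 as circle, square and triangle, and bars for the mean and SD (n = 3). TwistER arrays lie at -4.22 to -3.80 for CDH1 minus CDH3 and at -0.69 to -0.44 for CDH2 minus CDH11.

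Several of these genes share chromosome 16: CDH1, CDH3 and CDH11 among the measured members, with CDH5, CDH8, CDH15 and CDH16 among other measured cadherins (CDH15 and CDH16 outside the naming rule). Of these 7 cadherins CDH11 rose and CDH1 fell, and 5 did not pass. Among measured protein-coding genes, the nearest to CDH11 were CDH8, 2907.3 kilobases away, and CDH5, the endothelial VE-cadherin, 1242.9 kilobases away. Both were dim (GFP means 4.70 and 4.34) and did not pass, with differences of 0.06 ± 0.14 and -0.06 ± 0.14. Next to the CDH3 and CDH1 pair, ZFP90, a zinc finger gene, fell by 0.55 ± 0.12 (limma adjusted p = 0.0261). ZFP90 no longer passed when any TwistER array or GFP replicate 2 was dropped (highest adjusted p 0.105). On the other side TANGO6, a gene of protein transport, had a difference of 0.06 ± 0.23 (adjusted p = 0.921). The nearest measured genes to CDH2 on chromosome 18 were CHST9, a sulfotransferase, 747.6 kilobases away, and DSC3, a desmosomal cadherin, 2812.2 kilobases away. Both were dim (GFP means 4.43 and 2.19), and their differences of 0.09 ± 0.14 and 0.42 ± 0.20 did not pass.

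For the changed members, the genes nearest in pattern were taken by the root mean square distance over the 6 arrays after each gene was set to its own mean. CDH1 was closest to GRHL2, an epithelial transcription factor, at 0.31, followed by MACC1 and TMPRSS11E at 0.52 each. GRHL2 read 3.93, 4.08 and 4.22 in the TwistER arrays, against 8.05, 8.72 and 8.65 in the GFP arrays, with the same low GFP replicate 1. The nearest to CDH6 were SESN3, ENTREP1 and RALYL, to CDH11 DAPK1, TSPYL2 and MAP3K1, and to CTNNA1 PRDX2, FJX1 and CHD4, at distances of 0.02 to 0.08. Within a distance of 0.3 lay 0 genes for CDH1, 162 for CDH6, 1146 for CDH11 and 2903 for CTNNA1. Many genes thus lay near CDH6, CDH11 and CTNNA1 in pattern. Such distances are not scaled by the size of the change and describe 6 arrays in 2 groups.

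Of 20 further plaque proteins, catenin relatives and nectins, 0 rose and 3 fell in limma, against 4.72% and 4.11% of all genes. The list's median was 0.10 against 0.01 over all genes. At an unadjusted p under 0.05 there were 8. The share of all genes at that level was not counted, so this count cannot be called high or low. Plakoglobin (JUP), a relative of beta-catenin found in adherens junctions and desmosomes, fell 2.62-fold (-1.39 ± 0.20, adjusted p = 0.00298). Afadin (AFDN), which links nectins to actin, fell 1.65-fold, and NECTIN4 fell 1.56-fold. AFDN lost its call without TwistER replicate 2, and NECTIN4 without any of 4 arrays. Without GFP replicate 1, 5 fell and 1 rose, where 1490 and 1283 of all 18417 genes did so. NECTIN1 (-0.37) and the actin crosslinker ACTN4 (-0.45) were added to those that fell, and NECTIN3 rose by 0.38. These 3 were named after their values were seen. With all arrays none of the 3 passed, at -0.30 for NECTIN1, -0.24 for ACTN4 (adjusted p = 0.53) and 0.31 for NECTIN3. The neural alpha-catenin CTNNA2, CTNNA3, CTNND2 and the catenin-like CTNNAL1 had differences from 0.02 to 0.16, none past the test (these 4 outside the naming rule).

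**Figure D4:**
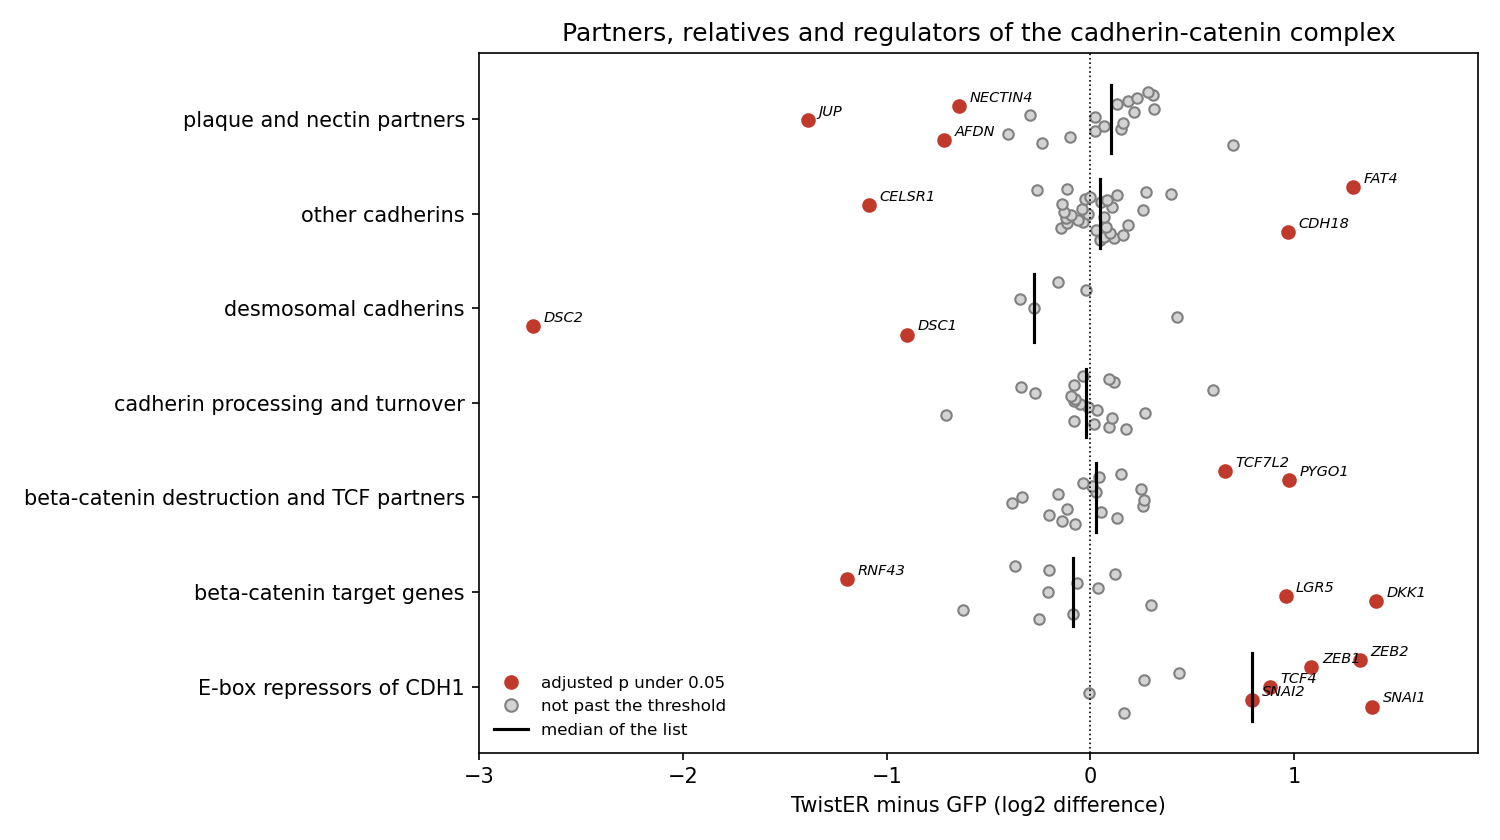
TwistER minus GFP difference (log2) of each gene in 7 lists of partners, relatives and regulators, in rows, with red for an adjusted p under 0.05 and a black bar at the list's median. Most genes lie near 0, and DSC2, JUP and RNF43 are farthest to the left while DKK1, SNAI1 and ZEB2 are farthest to the right.

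Of 33 further genes of the cadherin superfamily, 2 rose and 1 fell, around a median of 0.05, a share near the 8.83% of all genes. FAT4, a giant cadherin of the Hippo and planar polarity systems, rose 2.44-fold (1.29 ± 0.11, limma adjusted p = 0.000225). CDH18, a type II cadherin known from neural tissue, read 4.36 ± 0.05 in TwistER and 3.39 ± 0.30 in GFP (SD, n = 3) and rose 1.96-fold (adjusted p = 0.00553). CELSR1, a planar polarity cadherin, fell 2.12-fold (adjusted p = 0.0087). By mean level, 18 of the 33 were in the lowest 25% of all genes. Of 7 desmosomal cadherins, DSC2 (-2.74 ± 0.11) and the dim DSC1 (-0.90 ± 0.13) fell, and 0 rose, against 4.11% and 4.72% of all genes.

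Of 20 measured genes that process or turn over cadherins, 0 rose and 0 fell in limma, against 8.83% of all genes called. The median was -0.02. An unadjusted p under 0.05 was found for 4. Here too the share of all genes was not counted, so this count cannot be called high or low. Without GFP replicate 1, 1283 of all 18417 genes rose and 1490 fell. There the receptor phosphatase PTPRM rose by 0.43 and the protease FURIN, which removes the cadherin propeptide, fell by 0.97 (both named after their values were seen). With all arrays their differences were 0.60 (adjusted p = 0.0507) and -0.71 (0.0807).

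On the signalling side of beta-catenin, 2 of 19 genes of its destruction complex and its nuclear partners rose and 0 fell. This share was near the 8.83% of all genes called, and the median was 0.02. PYGO1, a nuclear cofactor of beta-catenin, was 1.96-fold higher (0.97 ± 0.14, limma adjusted p = 0.00324). TCF7L2, a DNA-binding partner, was 1.58-fold higher (0.66 ± 0.16, adjusted p = 0.0369), a call lost without any of 5 arrays, GFP replicate 1 among them. Without GFP replicate 1, 1 rose (PYGO1) and 1 fell, where 1283 and 1490 of all 18417 genes did so. The gene that fell was the beta-catenin antagonist CBY1 (-0.40, named after its value was seen), at -0.38 with all arrays (adjusted p = 0.0571). TCF7L2 was at 0.58 without GFP replicate 1 (adjusted p = 0.0538).

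Known beta-catenin targets moved in both directions, 2 of 13 rising and 1 falling, against 4.72% and 4.11% of all genes, around a median of -0.09. The secreted Wnt inhibitor DKK1 rose 2.64-fold (1.40 ± 0.11, limma adjusted p = 0.000155) and the R-spondin receptor LGR5, dim in both groups, 1.94-fold (0.96 ± 0.14). RNF43, a ligase that removes Wnt receptors, fell 2.29-fold (-1.19 ± 0.13, adjusted p = 0.000751). AXIN2, a widely used readout of the pathway and outside the naming rule, read 5.16 ± 0.34 in TwistER and 5.25 ± 0.33 in GFP (SD, n = 3), a difference of -0.09 ± 0.21 that did not pass. Without GFP replicate 1, where 1283 of all 18417 genes rose and 1490 fell, CCND1 also fell (-0.97, named after its value was seen). With that array its difference was -0.62 (adjusted p = 0.207).

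Of 9 repressors known to bind E-boxes of CDH1, or related factors, 5 rose and 0 fell, with a median of 0.79. Over all genes 4.72% rose and 4.11% fell. The 5 were SNAI1 (1.38 ± 0.12), ZEB2 (1.32 ± 0.13), ZEB1 (1.09 ± 0.14), TCF4 (0.88 ± 0.22) and, outside the naming rule, SNAI2 (0.79 ± 0.15). Between 3 and 5 of them rose when 1 array was left out, TCF4 losing its call without any TwistER array or GFP replicate 3, and SNAI2 without TwistER replicate 1 or 3 (highest adjusted p 0.0613). TWIST1 itself, also outside the naming rule, read 6.30, 6.67 and 6.84 in the TwistER arrays and 6.21, 6.20 and 6.62 in the GFP arrays, which overlapped, and did not pass (0.27 ± 0.17, adjusted p = 0.457). The labels do not give the species or the untranslated parts of the construct, so this probe set does not check whether it was expressed.

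The markers of cell type moved beside these results. Each count with all arrays stands against 4.72% of all genes that rose and 4.11% that fell. Of 5 epithelial markers 3 fell and 0 rose (EPCAM by 3.28, KRT19 by 3.22 and KRT8 by 0.70, the last without a call once any of 3 arrays was dropped), and the list's mean level was 7.89 to 7.94 over the TwistER arrays, against 9.31 to 9.84 over the GFP arrays. All 5 fell without GFP replicate 1, where 1490 of all 18417 genes fell, and that array was the lowest GFP array for 4 of them. KRT18 was then at -1.40 and KRT7 at -0.41, against -0.98 and -0.17 with all arrays, where neither passed (both named after their values were seen). Of 10 fibroblast markers 4 rose and 1 fell, with COL3A1 (2.13 ± 0.15) and FBLN1 (1.85 ± 0.13) highest and LUM (-1.63 ± 0.18) lowest, at mean levels of 5.09 to 5.20 over the TwistER arrays and 4.75 to 4.85 over the GFP arrays. The median difference of these fibroblast markers was only 0.03. Among those that rose, COL1A1 (0.54 ± 0.13, outside the naming rule) lost its call once any of 5 arrays was dropped. Of 6 endothelial markers KDR and PECAM1 rose (1.79 ± 0.12 and 0.61 ± 0.12), PECAM1 without a call once any of 3 arrays was dropped, at means of 4.31 to 4.41 against 3.83 to 3.95. Of 5 blood cell markers 0 rose and 0 fell in limma, 0 having an unadjusted p under 0.05, at means of 3.64 to 3.75 in TwistER arrays and 3.53 to 3.68 in GFP arrays. Without GFP replicate 1, where 1283 of all 18417 genes rose, the blood cell marker PTPRC rose by 0.48 (named after its value was seen). It was at 0.30 with all arrays (adjusted p = 0.377). All samples were of the H358 line, and the part of any other cell type in the cadherin values was not tested. Fewer cells with a transcript and less of it per cell cannot be told apart in these bulk RNA samples.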

How the data were processed

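Total RNA from 6 samples of H358 cells was made into biotin-labelled cRNA for an Affymetrix array, per the labels' protocols. The authors deposited log2 values per probe set, for which RMA is named in the submitters' processing notes; its version and probe definitions are unstated in the sources used here. RMA, as usually run, equalises probe intensities between arrays before they are summarised, which removes much of any shift common to all transcripts. All 6 columns matched a sample, and 33297 probe sets were read, of which 19460 had 1 gene symbol in the supplied platform annotation, 1754 several and 12083 none listed. Per gene the brightest probe set over all 6 arrays was kept, giving 18417 genes, with no filter on brightness. RefSeq (GRCh38.p14) was used for gene order, chromosomes and promoters. The build of the array annotation is not given. Coordinates are printed only for the promoter windows, and these and the distances between genes are from RefSeq.

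Groups came from the treatment label, with 3 biological replicates each by their titles. How these were separated is not stated, so p-values reflect only how much these samples varied, which may be technical. R 4.3.3 with limma 3.58.1 gave the differences (functions lmFit and eBayes, group as the single term, tests 2-sided, 4.44 prior degrees of freedom) and adjusted by Benjamini-Hochberg over all genes; the code was checked on data with known shifts. The number of arrays limits the precision. The named genes were the members, up to 4 changed genes of each of 11 lists by size of difference, the 3 genes nearest in pattern to each changed member, and chromosomal neighbours. Genes named outside this rule are marked in the text. Members, lists, tests and naming rule were chosen with earlier results of these data known. Alternatives changed the normalization, brightness filter, probe-set choice, variance model, array weights, replicate block, threshold and arrays used; counts of list members with arrays left out were chosen after seeing the data. Python 3.11.15 with pandas 2.3.3 and matplotlib 3.10.9 served for tabulation and drawing.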

Additional observations from a re-analysis of the deposited data

How the results depend on the processing

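The differences of all 7 measured members kept their sign in each of 16 alternative settings (normalization, brightness filter, probe-set choice, variance model, array weights, replicate block, each array left out). Under the brightness filters, probe-set choices, variance model and replicate block a member's difference cannot change, only its p. Its sign was therefore tested only by normalization, array weights and arrays left out. The number of members that rose was 2 in all 16 settings and at both other thresholds. The number that fell, 2, was 1 with cyclic loess 1 at an adjusted p under 0.01 and 3 at one under 0.1, and 1 to 3 with arrays left out: 3 without GFP replicate 1, when CDH3 was added, and 1 without any other array, when CTNNA1 lost its call. Fewer arrays were fitted there, and the cause of the loss with cyclic loess was not tested. CDH3 also passed with array weights (-1.26) and with the replicate block. The labels do not say that replicate numbers pair the samples. Same-numbered arrays' deviations from their group means correlated at 0.14, 0.02 and 0.16, not all over 0.1. Of the 6 arrays, 5 correlated best with their own number. These best matches share the same correlations, so they are not separate observations. They are at most a hint from the data and not the design. In the block fit 2 members rose, 3 fell (CDH3 at -0.96, adjusted p 0.0489), and 1592 genes passed, against 1627. Over all genes, 3268 passed with array weights, 2773 without GFP replicate 1, and 831 to 1198 without each other array. The 4 pair differences kept their sign throughout. No detection calls come with the values, so CDH1 in TwistER cells and CDH6 in GFP cells, both close to the array median, cannot be placed against background.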
